A study of Homo sapiens with 8 samples.

Results

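Genes of proline and hydroxyproline metabolism, 9 in all, were followed in OAW42-R cells after knockdown of the long noncoding RNA UCA1: PRODH2, PRODH, ALDH4A1, HOGA1, ALDH18A1, OAT, PYCR1, PYCR3 and PEPD. The members were 9 of the 47753 genes on the array, and a probe was assigned to a member when the RefSeq accession given for the probe mapped to the member's symbol. The set was built around PRODH2, picked for its strong fall in this very comparison, so PRODH2 is described below without a test; the other 8 members were listed for their place in the pathway. OAW42-R is a cisplatin-resistant derivative of OAW42, an established line from a serous ovarian carcinoma. Cells were transfected with 20 nM of a control siRNA (sictrl, NT in the labels) or of a pair of siRNAs against UCA1 (siUCA1, 2+4 in the labels). Each condition has 4 arrays named A1, M2, A2 and A3; the study's methods state 4 independent experiments but do not say which arrays share one, and no array holds untransfected cells. The labels place the RNA at 24 h after transfection, whereas the methods state a later time. Because a single mixture of siRNAs was used, effects of UCA1 loss and of these siRNAs on other transcripts cannot be told apart.

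Proline is broken down in mitochondria. PRODH, proline dehydrogenase, oxidises proline to pyrroline-5-carboxylate, and ALDH4A1, pyrroline-5-carboxylate dehydrogenase, turns that product into glutamate. 4-Hydroxyproline, most of which is released when collagen is degraded, has a route of its own: PRODH2, hydroxyproline dehydrogenase, takes the opening step, ALDH4A1 serves this route as well, and HOGA1, an aldolase, cleaves the last intermediate into pyruvate and glyoxylate. PRODH2 and HOGA1 are best known from liver and kidney, where this route feeds glyoxylate and oxalate formation. Synthesis runs the other way, with ALDH18A1 making pyrroline-5-carboxylate from glutamate, OAT making it from ornithine, and PYCR1 (mitochondrial) and PYCR3 (cytosolic) reducing it to proline. PEPD, prolidase, frees proline and hydroxyproline from dipeptides.

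Values are log2 of the scanner software's processed signal relative to the 75th percentile of the same array, so a value of 0 is a spot at that percentile; levels of different probes are not comparable. A spot counts as detected when the scanner software marks it well above background, and a probe was kept when detected on all 4 arrays of at least 1 condition. All 13 member probes, 2 each for PRODH, ALDH4A1, PYCR1 and PYCR3 and 1 for each other member, were kept, PRODH2 only through sictrl. A difference was called at an adjusted p under 0.05 in limma with Benjamini-Hochberg adjustment over all 15456 genes tested, each represented by its brightest kept probe. UCA1 itself checked the labels: its level went from 8.20 ± 0.49 in sictrl to 3.16 ± 0.47 in siUCA1 (SD, n = 4), a fall of 5.04 on the log2 scale (limma adjusted p = 0.000122). Of the genes tested, 1788 or 11.6% were called, 5.72% higher and 5.85% lower in siUCA1. The split depended on the scaling, since 49.4% of the called genes were higher with the 75th percentile and 21.3% with the array median, while the median difference over all genes moved from 0.030 to -0.065. No spot was saturated, and the lowest signal marked well above background lay between 10.8 and 25.9 units on the 8 arrays. The software's fit of a surface trend across the array was strongest for sictrl A3 (0.321, relative root mean square) and siUCA1 A1 (0.287), against 0.0737 to 0.0943 on the other 6 arrays, so that 1 array of each condition was distant from the rest. Of 10 ovarian epithelial markers, 7 were kept, while WT1, MUC16 and MSLN, markers of serous carcinoma, were detected on none of the 8 arrays. None of 8 hepatocyte markers and 1 of 7 kidney tubule markers (LRP2) were kept, nor were any of 6 fibroblast markers; 1 of 4 endothelial markers (VWF) was. Of the marker genes kept, CDH1 fell by 0.81 on the log2 scale (limma adjusted p = 0.0149) and CD14, a monocyte marker, rose by 0.70 (0.0478); their part in the differences below was not tested.

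The bases before the start site of PRODH2 are shown because PRODH2 carries the largest change of the set, and those of SLC36A1 because this proline transporter was the called gene among the further pathway genes described below. Both come from RefSeq (GRCh38.p14) and run 5′ to 3′ over the 250 bases that end just before an annotated start. The PRODH2 window is chr19:35812846-35813095 on the minus strand and that of SLC36A1 is chr5:151447353-151447602 on the plus strand. Capitals mark TAATNATTA, a palindrome of the kind bound by homeodomain factors, in PRODH2, and CACGTG, the E-box of basic helix-loop-helix factors, in SLC36A1. Both motifs were chosen after the sequences had been seen.
PRODH2: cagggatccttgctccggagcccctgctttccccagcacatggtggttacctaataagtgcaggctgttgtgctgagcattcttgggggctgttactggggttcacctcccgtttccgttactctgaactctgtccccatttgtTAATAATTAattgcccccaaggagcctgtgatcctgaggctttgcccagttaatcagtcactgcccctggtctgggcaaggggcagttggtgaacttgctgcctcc
SLC36A1: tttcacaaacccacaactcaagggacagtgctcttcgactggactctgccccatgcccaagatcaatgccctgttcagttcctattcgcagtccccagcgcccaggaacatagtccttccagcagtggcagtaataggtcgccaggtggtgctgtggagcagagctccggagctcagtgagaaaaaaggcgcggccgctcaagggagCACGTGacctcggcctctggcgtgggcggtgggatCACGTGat

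On either strand, TAATNATTA occurred in 0.4414% of the 35116 windows of this length in the table, and its single match in PRODH2 began 106 bases before the start. CACGTG occurred in 6.345% of windows and at 2 places in the printed SLC36A1 window, 43 and 8 bases before the start, but not in the window of the other annotated SLC36A1 start. No TATAAA (10.72% of windows), CCAAT (32.01%) or GGGCGG (42.64%) was found in the PRODH2 window on either strand. A window was found for 6 members. ALDH18A1 and HOGA1, both without a call, also held a CACGTG, and none besides PRODH2 held TAATNATTA. These matches describe the letters in the windows and were not tested as binding sites.

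PRODH2 transcript was detected in all 4 sictrl arrays and in none of the 4 siUCA1 arrays. In sictrl, the level of PRODH2 was -1.12 in A1, -0.90 in M2, -0.87 in A2 and -0.81 in A3. In siUCA1, it was -4.31 in A1, -3.63 in M2, -4.15 in A2 and -4.27 in A3. The groups did not overlap, and the lowest sictrl array lay 2.51 above the highest siUCA1 array. The means were -0.93 ± 0.13 and -4.09 ± 0.31 (SD, n = 4), a difference of -3.16. As the siUCA1 spots were not well above background, this difference is not a measured fold. With each siUCA1 array set at the lowest signal that was well above background for any spot on it, PRODH2 was 3.70-fold lower in siUCA1. That signal is not a limit measured for the PRODH2 spot, so 3.70-fold is an estimate under this setting and not a minimum. In units of processed signal, the PRODH2 spot read 61.3 to 69.5 in sictrl and 5.38 to 9.55 in siUCA1, so it was a dim spot even in control cells.

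**Figure D1:**
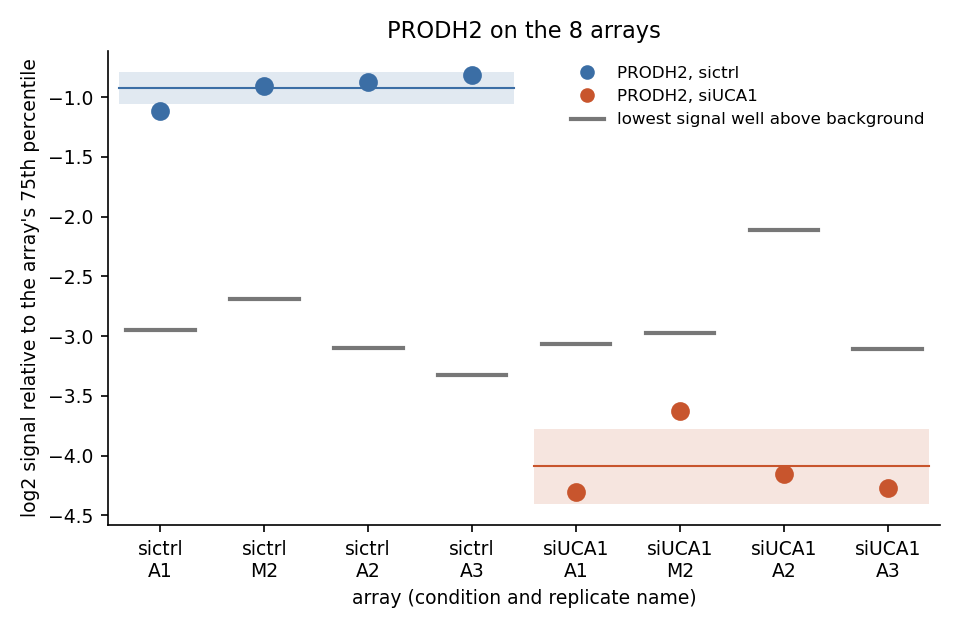
PRODH2 on each of the 8 arrays, as log2 signal relative to the array's 75th percentile (y axis), by condition and replicate name (x axis). Dots are single arrays, coloured lines and bands are the mean and SD of a condition, and grey bars are the lowest signal well above background on that array; the 4 sictrl dots lie above their grey bars and the 4 siUCA1 dots below theirs.

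In both rows of the slide, each with 2 arrays of each condition, PRODH2 was detected in sictrl and not in siUCA1; as these values chose the gene, they are given as a description. The estimate of its size depended on the treatment of background, since the difference was -0.76 with a normexp background correction that adds an offset to dim spots, and -1.89 with dim values raised to the detection limit. In bulk RNA, fewer cells that express PRODH2 and less PRODH2 RNA per cell cannot be told apart. Of the cell types PRODH2 is best known from, no hepatocyte marker was kept. The 1 kidney tubule marker kept, LRP2, was detected on all 8 arrays and differed by -0.09 (limma adjusted p = 0.872). The hepatocyte sum was -1.60 to 0.12 in sictrl and -1.28 to -0.68 in siUCA1, and the kidney tubule sum 0.05 to 0.58 and -0.36 to 0.61. How much of these sums comes from spots near background was not measured, so a change in such cells cannot be read from them.

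None of the tested genes that flank PRODH2 on chromosome 19 was called. In RefSeq order the 3 genes before it are PROSER3, ARHGAP33 and the pseudogene TEX14BP, and the 3 after it are NPHS1, KIRREL2 and LOC107985317. The difference was 0.14 for PROSER3 (95% confidence interval -0.40 to 0.68, limma adjusted p = 0.759), 0.10 for ARHGAP33 (-0.16 to 0.36, limma adjusted p = 0.628) and 0.01 for KIRREL2 (-0.32 to 0.34, limma adjusted p = 0.970). A further kept probe of ARHGAP33 gave 0.48 (-0.26 to 1.22, limma adjusted p = 0.385 over probes), and the mean of both probes 0.29. NPHS1, which encodes the kidney protein nephrin, was detected on none of the 8 arrays. No TEX14BP probe was kept and no probe matched LOC107985317. A further KIRREL2 probe, not kept because it was detected on 3 of 4 sictrl arrays and on none in siUCA1, read -3.08 to -2.24 in sictrl and -5.16 to -3.47 in siUCA1 without overlap.

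By the root mean square difference of centred log2 values over the 8 arrays, the genes most like PRODH2 among 11989 with a symbol were RNF157-AS1 (0.54), COPB2-DT (0.55), S100A3 (0.59), OCRL (0.62) and HOXC4 (0.67). S100A3 is a calcium-binding protein, OCRL a phosphoinositide phosphatase, HOXC4 a homeobox factor, and the other two are noncoding transcripts. All 5 were detected in both conditions, with differences of -2.38 (HOXC4) to -2.22 (OCRL). The same measure for the other members of the pathway ran from 1.35 (PYCR3) to 1.80 (PRODH). The measure rests on the fall that chose PRODH2 and on siUCA1 values not above background, so a member without such a fall is distant by construction.

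Of the 8 members besides PRODH2, 1 was called higher (PRODH) and 1 lower (PYCR3), beside the 11.6% of all genes called. The median difference of the 8 was 0.042 against 0.030 over all genes. At the level of probes, 3 of the 12 probes of these members were called (11.5% of all probes), and 4 of 12 had no overlap between conditions (20.7% of all probes).

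**Figure D2:**
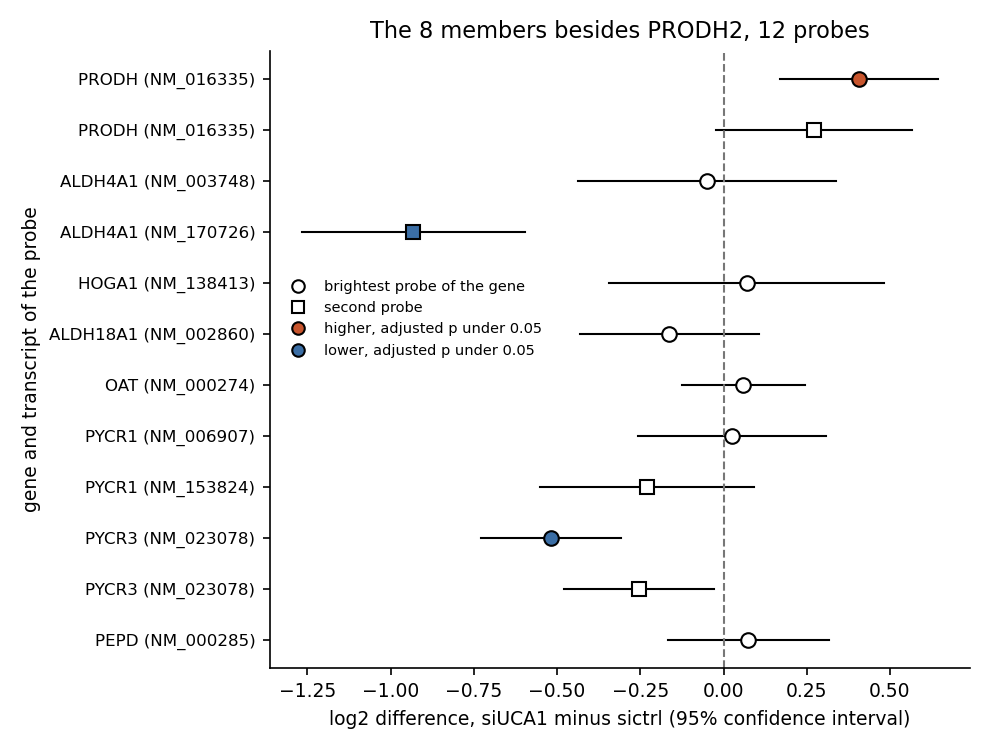
log2 difference of siUCA1 minus sictrl (x axis) for the 12 probes of the 8 members besides PRODH2, named by gene and transcript (y axis); lines are 95% confidence intervals from limma over all kept probes and filled symbols have an adjusted p under 0.05. The brighter probe of PRODH lies above 0, the brighter probe of PYCR3 and the dimmer probe of ALDH4A1 lie below it, and of the other intervals only that of the dimmer PYCR3 probe excludes 0.

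On the breakdown side, PRODH, the proline counterpart of PRODH2, was higher in siUCA1 than in sictrl. Its brighter probe read 6.62 in A1, 6.62 in M2, 6.69 in A2 and 6.62 in A3 of sictrl. In siUCA1 it read 6.90 in A1, 7.10 in M2, 7.25 in A2 and 6.92 in A3. Every siUCA1 array was above every sictrl array, with most of the spread within siUCA1. The means were 6.64 ± 0.04 and 7.04 ± 0.17 (SD, n = 4), a rise of 0.41 (SE 0.10, 95% confidence interval 0.17 to 0.64), or 1.33-fold, with a limma adjusted p of 0.0385. The two-sided exact permutation p was 0.0286, the smallest that 4 against 4 arrays allow. The dimmer PRODH probe, for the same transcript, gave 0.27 (-0.02 to 0.57, limma adjusted p = 0.214 over probes), with overlapping conditions. The PRODH call was weak: it ended without any 1 of 7 of the 8 arrays (limma adjusted p 0.0527 to 0.108) and held only without siUCA1 A1 (0.0253). In all, 14 of 23 alternative settings lost it, among them the mean of both probes (0.0896) and the replicate name as a block (0.0507). RefSeq lists a pseudogene, PRODHLP, also on chromosome 22, and whether the probes separate the copies was not tested.

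ALDH4A1, shared by both routes, gave different results with its probes. On the probe for NM_003748, the difference was -0.05 (95% confidence interval -0.44 to 0.34, limma adjusted p = 0.887), with the arrays sictrl A3 at 4.27 and siUCA1 A1 at 4.06 above the remaining 6, which lay between 3.61 and 3.74. The dimmer probe, for NM_170726, read -0.54 in A1, -0.53 in M2, -0.47 in A2 and -0.09 in A3 of sictrl. In siUCA1 it read -1.05 in A1, -1.56 in M2, -1.32 in A2 and -1.44 in A3. All siUCA1 values lay below all sictrl values. The difference was -0.93 (SE 0.15, 95% confidence interval -1.27 to -0.60), which left 52.4% of the sictrl level, with a limma adjusted p of 0.00713 over probes and an exact permutation p of 0.0286. It stayed called without each of the 8 arrays in turn (-1.03 to -0.83), though not with normexp (limma adjusted p = 0.0855) or without the detection filter (0.110). The mean of both probes gave -0.49 (limma adjusted p = 0.0762), so ALDH4A1 as a gene was not called.

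HOGA1, the aldolase at the end of the hydroxyproline route, ranged from -0.94 to -0.21 in sictrl and from -0.73 to -0.13 in siUCA1. The ranges largely overlapped. The difference was 0.07 (95% confidence interval -0.34 to 0.48, limma adjusted p = 0.848).

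**Figure D3:**
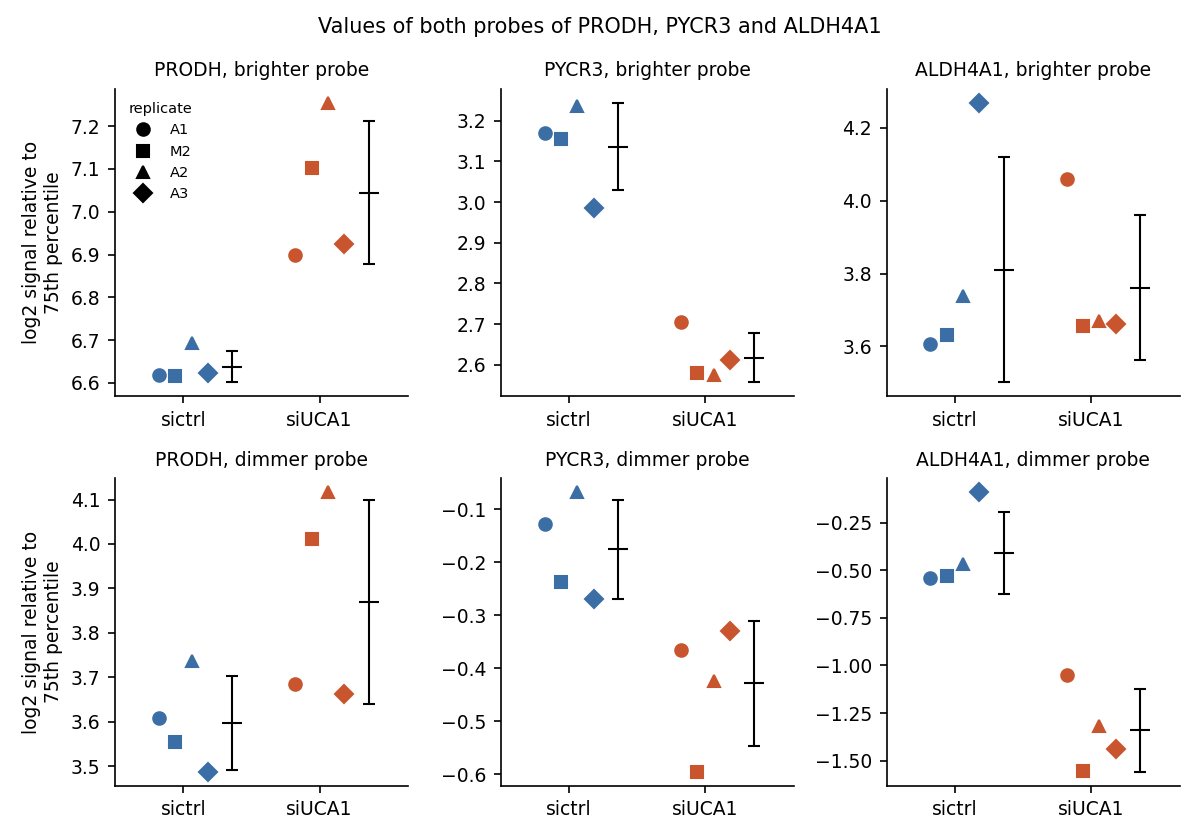
log2 signal relative to the array's 75th percentile (y axis, own scale in each panel) for both probes of PRODH, PYCR3 and ALDH4A1 in sictrl and siUCA1 (x axis). Symbols are single arrays with a shape for each replicate name, and black marks are mean and SD; sictrl A3 and siUCA1 A1 stand high in the brighter ALDH4A1 panel, and the conditions separate in 4 of the 6 panels.

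On the synthesis side, PYCR3, the cytosolic reductase, was lower in siUCA1. Its brighter probe read 3.17 in A1, 3.15 in M2, 3.24 in A2 and 2.98 in A3 of sictrl. In siUCA1 it read 2.71 in A1, 2.58 in M2, 2.57 in A2 and 2.61 in A3. The conditions did not overlap, and sictrl A3 was the lowest of its group. The means were 3.14 ± 0.11 and 2.62 ± 0.06 (SD, n = 4), a fall of 0.52 on the log2 scale (SE 0.09, 95% confidence interval -0.73 to -0.31), or 1.43-fold, with a limma adjusted p of 0.0106 and an exact permutation p of 0.0286. It was -0.54 and -0.50 in the rows of the slide and remained called without each array in turn (adjusted p 0.00857 to 0.0431), but lost its call with median scaling (0.155), with normexp (0.0993) and without the detection filter (0.270). The dimmer probe of the same transcript gave -0.25 (-0.48 to -0.03, limma adjusted p = 0.138 over probes), also without overlap between conditions.

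The mitochondrial reductase and the enzymes that feed it with pyrroline-5-carboxylate were not called. PYCR1 went from 7.82 ± 0.22 to 7.84 ± 0.10 (SD, n = 4), a difference of 0.02 (95% confidence interval -0.26 to 0.31, limma adjusted p = 0.925), and its dimmer probe for NM_153824 gave -0.23 (-0.55 to 0.09, limma adjusted p = 0.340 over probes). ALDH18A1 ranged from 3.06 to 3.47 in sictrl and from 2.91 to 3.20 in siUCA1, a difference of -0.16 (-0.43 to 0.10, limma adjusted p = 0.413). With 1 array left out, the ALDH18A1 difference ran from -0.22 without sictrl A1 to -0.08 without sictrl A3, with no call. OAT was tightly measured, at 3.34 to 3.44 and 3.40 to 3.48, a difference of 0.06 (-0.12 to 0.24, limma adjusted p = 0.683). For PEPD, which supplies proline from collagen peptides, the difference was 0.07 (-0.17 to 0.32, limma adjusted p = 0.699).

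A further 54 genes around the pathway were on the array, of which 38 were tested and 16 were not kept in either condition. Of these 38, 1 was called, beside the 11.6% of all genes; their median difference was 0.011 and 8 had an unadjusted p under 0.05, a smaller share than the 4263 of the 15456 genes tested. The called gene was SLC36A1, a proton-coupled transporter of proline and other small amino acids found on lysosomes. It read 1.09 in A1, 1.09 in M2, 1.09 in A2 and 0.90 in A3 of sictrl. In siUCA1 it read 0.51 in A1, -0.17 in M2, -0.11 in A2 and -0.16 in A3. The conditions did not overlap, and siUCA1 A1 stood nearest to sictrl. The means were 1.04 ± 0.10 and 0.02 ± 0.33 (SD, n = 4), a fall of 1.02 on the log2 scale (SE 0.16), or 2.03-fold, with a limma adjusted p of 0.00700; it stayed called without each array in turn, though not without the detection filter (0.109).

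**Figure D4:**
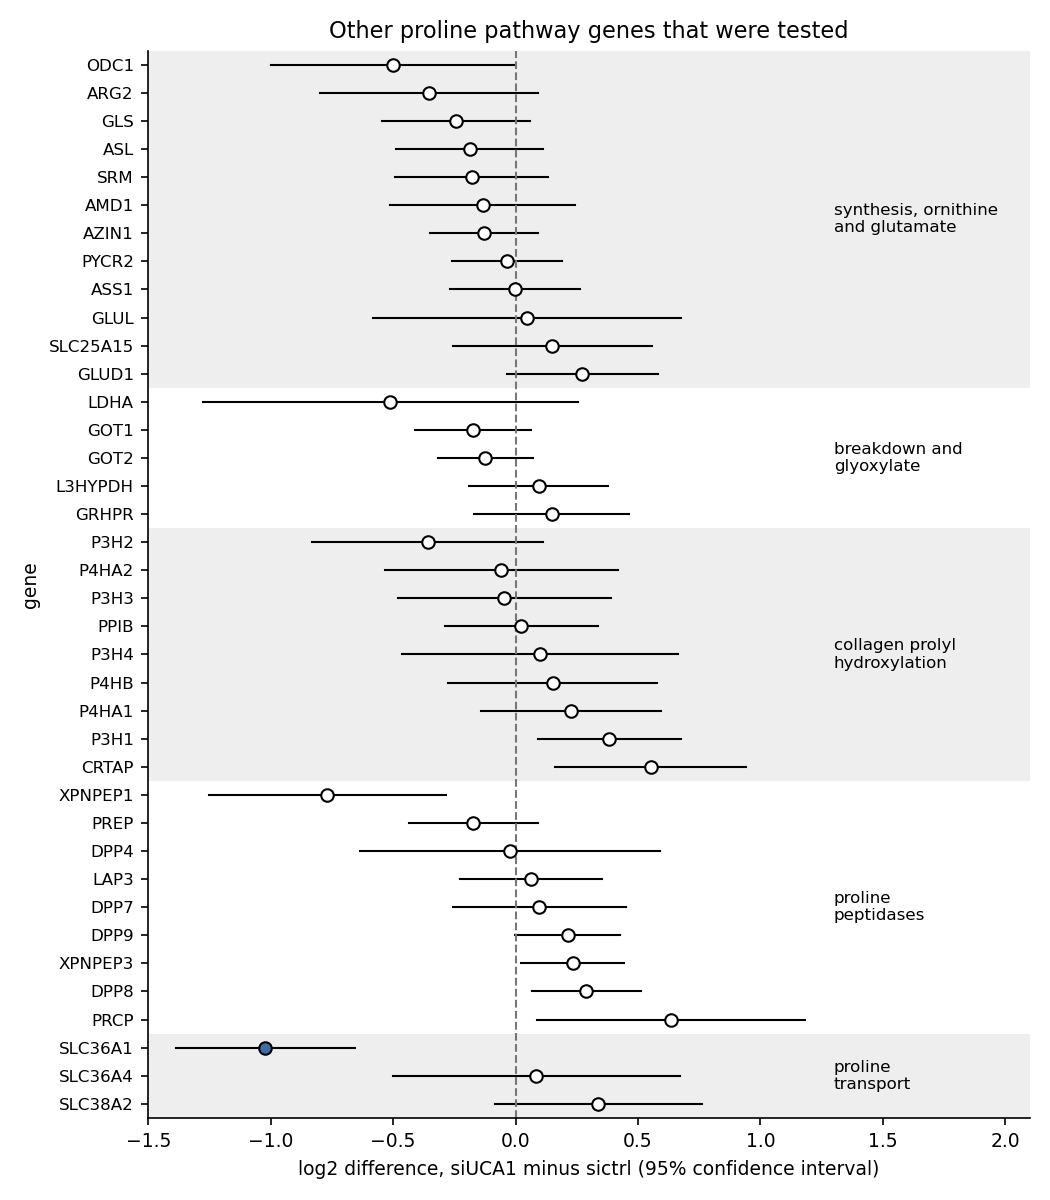
log2 difference of siUCA1 minus sictrl (x axis) for the 38 further genes tested (y axis), grouped by list, with 95% confidence intervals from limma over all genes; the filled dot has an adjusted p under 0.05. SLC36A1 is the filled dot, at -1.02, and all others are open.

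None of the 12 tested genes of ornithine and glutamate metabolism was called, and their median difference was -0.13. ODC1, which commits ornithine to polyamines, had the largest difference at -0.50 (limma adjusted p = 0.181), followed by ARG2, mitochondrial arginase, at -0.35 (0.285). The ODC1 difference was -0.73 and called without siUCA1 A1 (limma adjusted p = 0.0103), and -0.64 without both sictrl A3 and siUCA1 A1 (0.00592). That of ARG2 was -0.21 without siUCA1 A1 and -0.53 without siUCA1 A3, with no call. None of the 5 tested genes of the later hydroxyproline and glyoxylate steps was called (median -0.12), LDHA having -0.51 (limma adjusted p = 0.369) and the transaminase GOT1 -0.17 (0.322). LDHA was -0.23 without siUCA1 A1 and -0.79 without sictrl A3, neither called, and without both arrays it was -0.50 and called (limma adjusted p = 0.00844). AGXT and HAO1, which handle glyoxylate and glycolate in liver peroxisomes, were among the 4 of that list not kept.

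None of the 9 tested genes of collagen prolyl hydroxylation was called (median 0.10). CRTAP, a partner of prolyl 3-hydroxylase, had 0.55 (limma adjusted p = 0.0747) and the hydroxylase P3H1 0.38 (0.0922). With the replicate name as a block, CRTAP was called (limma adjusted p = 0.0222) and P3H1 was not (0.0516). CRTAP was also called without sictrl A1 (0.0380), and P3H1 was called without sictrl A3 (0.0249). Of the 9 tested proline peptidases none was called (median 0.097). XPNPEP1, cytosolic aminopeptidase P, came nearest at -0.77 (limma adjusted p = 0.0507), with siUCA1 values of -1.91 to -0.92 below sictrl values of -0.83 to -0.45, and PRCP, a lysosomal carboxypeptidase, had 0.63 (limma adjusted p = 0.128). XPNPEP1 was called without siUCA1 A3 (limma adjusted p = 0.0278) and PRCP without sictrl A3 (0.0106). Besides SLC36A1, 2 of the 9 proline transporters were tested: SLC38A2 gave 0.34 (limma adjusted p = 0.282) and SLC36A4 0.08 (0.872), of which SLC38A2 was called without sictrl A3 (0.0392) and SLC36A4 ran from -0.11 without that array to 0.31 without siUCA1 A1. Leaving out both sictrl A3 and siUCA1 A1 raised the number called among these 38 genes from 1 to 7 and that among all genes from 1788 to 3878.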

How the data were processed

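RNA of OAW42-R cells was measured on 8 one-colour Agilent oligonucleotide arrays, all on 1 slide. The deposited scanner files were made by the authors with Agilent Feature Extraction 10.7.3.1 and hold a processed signal intensity per spot, already background-subtracted; the deposited value table holds the same intensity. Depth does not apply, and precision rests on 4 arrays a condition. Control and outlier spots were left out of 62976, spots of a probe averaged, and log2 intensity was scaled to each array's 75th percentile of 60901 non-control spots (limma 3.58.1, R 4.3.3; figures with matplotlib 3.10.9). Of 58201 probes, 19047 were kept. Symbols came from RefSeq accessions. lmFit and eBayes compared siUCA1 with sictrl without covariates, and 95% intervals came from the same fit. The code was tested on simulated data. Named were all members and their probes, called genes of the further lists with up to 2 more per list by size of difference, 3 neighbours of PRODH2 on each side, the 5 genes most like it, and markers where a label was touched. The members and lists were chosen with earlier results of these data known. Whether a replicate name pairs arrays across conditions was not settled by the deviations from condition means. The main fit has no block for it, and a fit with the replicate name as a block is given as an alternative. Results for a few marker and regulator genes are not reported here.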

Additional observations from a re-analysis of the deposited data

Results flagged for a closer look

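Each of the 13 member probes gives a set of 4 arrays in each condition, 26 sets in all, and in 4 of them 1 array lay far from the other 3, by the gap to its nearest neighbour as a share of the whole range (Dixon's ratio); chance gives about 1 in 20. For ALDH4A1 on the probe for NM_003748, siUCA1 A1 read 4.06 and the others 3.65 to 3.67 (ratio 0.961). On its probe for NM_170726, sictrl A3 read -0.09 and the others -0.54 to -0.47 (0.837). For OAT, siUCA1 M2 read 3.40 and the others 3.47 to 3.48 (0.854). On the brighter PRODH probe, sictrl A2 read 6.69 and the others 6.62 (0.903). Both ALDH4A1 arrays are those with the strong surface trend. With that trend removed, the ALDH4A1 differences were -0.05 (NM_003748) and -0.94 (NM_170726). The part of the trend in the values of these single arrays was not tested.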

How the results depend on the processing

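The PRODH2 difference kept its sign in every alternative that gave one, at -0.756 with normexp, -1.89 with dim values raised and -3.32 to -3.09 with 1 array left out; the filter for detection on all 8 arrays removes the gene. Among the 8 other members, 2 calls became 1 with quantile normalization, the mean of detected probes, the replicate block (PRODH adjusted p = 0.0507) and the slide row block, 0 with median scaling, no detection filter and normexp, and 1 to 2 with 1 array left out. PRODH kept its call in 9 of 23 alternatives, losing it without sictrl A1, M2, A2 or A3 and without siUCA1 M2, A2 or A3; PYCR3 kept its call in 20 (adjusted p = 0.155 with median scaling, 0.270 with no filter, 0.0993 with normexp) and the ALDH4A1 probe for NM_170726 in 20 of 22 (0.110 with no filter, 0.0855 with normexp).

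Calls among the 38 further genes are given with the calls over all genes in brackets. The 1 call (1788 of 15456) became 2 with the percentile over detected probes (1873), adding XPNPEP1. It became 2 with the replicate block (1727), adding CRTAP (limma adjusted p = 0.0222). Detection on all 8 arrays left 36 of these genes tested and gave 2 calls (1738 of 14144), adding XPNPEP1. With no filter, 54 were tested and 0 called (76 of 47753). The count was 4 with the mean of probes (1811), 3 with the surface trend removed (2405) and 10 with array weights (4599). It was 7 without both distant arrays (3878 of 15991) and 1 to 4 with 1 array left out (760 to 2290). SLC36A1 was called in all but the unfiltered fit (limma adjusted p = 0.109).

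Signs turned, near 0, with median scaling (HOGA1 -0.0262, OAT -0.0362, PYCR1 -0.0712, PEPD -0.0209, SLC36A4 -0.0107, KIRREL2 -0.0844), normexp (HOGA1 -0.00592, PEPD -0.131, KIRREL2 -0.0520), quantile normalization (PYCR1 -0.0851), the mean of probes (PYCR1 -0.102), the percentile over detected probes (KIRREL2 -0.00608), array weights (PROSER3 -0.0117, KIRREL2 -0.0868), the surface trend removed (KIRREL2 -0.00165) and both distant arrays left out (ALDH4A1 0.00322, PROSER3 -0.151, KIRREL2 -0.0866). With 1 array left out, signs turned within ALDH4A1 -0.149 to 0.103, HOGA1 -0.0679 to 0.176, PYCR1 -0.0370 to 0.127, SLC36A4 -0.110 to 0.308, PROSER3 -0.0882 to 0.267 and KIRREL2 -0.0994 to 0.108. The cause was not tested.

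Over all genes, 1788 calls became 535 with median scaling, of which 21.3% were higher against 49.4%, 380 with normexp and 76 with no filter, both 39.5% higher, 4599 with array weights, 3878 without both distant arrays, and 760 to 2290 with 1 array left out. Alternatives for the dimmer probes, the further genes named and the neighbours of PRODH2 were chosen after seeing the data. Arrays of one replicate name deviated together with r of 0.038 (A1) to 0.278 (M2), over 0.1 in 3 of 4 names. These values do not settle whether the names pair the arrays, and the main fit was left without a block. With the replicate name as a block, the count over all genes was 1727. PRODH2 was not well above background in siUCA1, so the size of its fall depends on the treatment of background.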
